A study of Homo sapiens with 42 samples.

Results

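The replication-dependent histone genes were followed in RPMI-8226, an established human plasma cell line that was derived from a multiple myeloma. A probe set, the group of short probes that reads 1 transcript or several on an Affymetrix U133 Plus 2 array, was a member if it was annotated to a gene of the histone clusters (older symbols beginning HIST1 to HIST4, now H1-1 to H1-6, H2AC, H2BC, H3C and H4C). By this rule 72 of the 54675 probe sets on the array were members, 52 annotated to 1 histone gene and 20 shared by several. They comprised 20 for H2B, 16 for H2A, 16 for H4, 11 for H3, 7 for the linker histone H1 and 2 shared by H2A and H3 genes. Among them were H3-4, formerly HIST3H3, H2BC12L, an H2B gene outside the clusters on chromosome 21, and 2 pseudogenes. Testing was limited to probe sets whose signal reached the array's own median on 3 or more of the 42 arrays, a filter that 49 members and 35232 probe sets in all passed.

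The cells had been stably infected with an inducible hairpin to BMI1, which belongs to the Polycomb repressive complex PRC1, or with an inducible control hairpin. The labels do not say whether either line was a clone or a pool. Both lines carried the vector, and doxycycline at 100 ng/ml switched the hairpin on. The groups were the BMI1-shRNA line with doxycycline and without it, and the control-shRNA line with doxycycline and without it, each at 24, 32 and 48 h, and each line at 0 h, with 3 arrays in each of 14 groups (21 arrays per line). Replicates are numbered in the labels, and whether they came from separate cultures is not said, so a p-value here covers the spread of arrays only, which may be technical.

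Most core histone mRNAs of dividing cells are made in S phase, when new DNA has to be packed, and come from many near-identical genes in clusters on chromosomes 6 and 1. They end in a stem-loop, which the protein SLBP binds, and not in a poly(A) tail, and the U7 snRNP with its proteins LSM10 and LSM11 cuts them to length. NPAT, a target of cyclin E and CDK2, switches the clusters on, and ERI1 trims the stem-loop when the mRNA is degraded. Some of these genes, such as H2BC12, H2BC5, H2BC21, H2AC6 and H1-2, are known from other cells to also give polyadenylated transcripts. The standard Affymetrix labelling that the labels name primes on poly(A) tails, so a signal here is not a measure of all histone mRNA.

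BMI1 itself read 139.8 to 234 signal units on the 9 arrays of the BMI1-shRNA line with doxycycline and 758 to 1129 on its 9 arrays without it at the same times, against 1117 to 1364 on the 18 control-line arrays at those times. Without doxycycline BMI1 was also lower in the BMI1-shRNA line than in the control-shRNA line over the mean of 24, 32 and 48 h (log2 fold change -0.32, limma adjusted p = 2.12e-05). By time the difference was -0.42 at 24 h, -0.36 at 32 h and -0.19 at 48 h, the last with a limma adjusted p of 0.224. The labels of the BMI1-shRNA arrays at 0 h disagree with one another: by title they had no doxycycline, by characteristics they had it, and by source name they came from control cells. The title was followed. These arrays read BMI1 at 1009 to 1069, and correlated with other arrays of the BMI1-shRNA line at 0.961 to 0.980 and with the control line at 0.949 to 0.965. RNA quality was read as the signal at the 3′ end over that at the 5′ end. For GAPDH this was 0.935 ± 0.0251 in BMI1-shRNA arrays and 1.03 ± 0.0401 in control-shRNA arrays (SD, 21 arrays each). For ACTB it was 1.16 ± 0.0319 in BMI1-shRNA arrays and 1.18 ± 0.0303 in control-shRNA arrays. Of 9 plasma cell markers 7 were bright in both lines, with mean signals of at least 241.7, and CD27 and SLAMF7 had mean signals under 15. CD38 averaged 509 in the BMI1-shRNA line and 241.7 in the control-shRNA line, without overlap. The epithelial markers EPCAM and KRT18 were bright in both lines, and KRT18 averaged 2189 in the BMI1-shRNA line and 1646 in the control-shRNA line. CDH1 averaged 377 in the BMI1-shRNA line and 45.3 in the control-shRNA line. KRT8, also epithelial, was dim in both, at 42.4 in the BMI1-shRNA line and 44.3 in the control-shRNA line. The part of RNA quality and of these markers in the results was not tested.

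Upstream stretches of 4 genes are shown because each gene was lower in the BMI1-shRNA line without doxycycline, with it and at 0 h, as described further on, and because the 3 classes H2B, H2A and H1 differ in their promoter elements. They hold the 200 bases before the RefSeq start of each gene on build GRCh38.p14, read 5′ to 3′ on the gene's strand: H2BC12 (chr6:27146859-27147058, minus strand), H2BC21 (chr1:149886683-149886882, minus strand), H2AC6 (chr6:26123972-26124171, plus strand) and H1-2 (chr6:26056471-26056670, minus strand). Capitals mark matches on either strand. The TATA box was searched as TATAAA. The CCAAT box was searched by those letters. Part of the octamer that factors such as OCT1 bind was searched as ATTTGCA.
H2BC12: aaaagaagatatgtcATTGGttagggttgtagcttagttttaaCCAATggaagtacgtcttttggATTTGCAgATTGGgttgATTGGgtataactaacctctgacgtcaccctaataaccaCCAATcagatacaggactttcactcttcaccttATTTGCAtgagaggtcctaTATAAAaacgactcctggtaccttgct
H2BC21: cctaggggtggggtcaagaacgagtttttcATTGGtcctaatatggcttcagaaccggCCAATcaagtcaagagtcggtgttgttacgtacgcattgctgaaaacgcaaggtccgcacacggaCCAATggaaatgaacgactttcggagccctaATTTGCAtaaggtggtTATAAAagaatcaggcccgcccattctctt
H2AC6: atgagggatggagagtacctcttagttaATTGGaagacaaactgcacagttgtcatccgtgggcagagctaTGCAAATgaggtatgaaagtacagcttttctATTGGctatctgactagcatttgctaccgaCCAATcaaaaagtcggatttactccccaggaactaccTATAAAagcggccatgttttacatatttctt
H1-2: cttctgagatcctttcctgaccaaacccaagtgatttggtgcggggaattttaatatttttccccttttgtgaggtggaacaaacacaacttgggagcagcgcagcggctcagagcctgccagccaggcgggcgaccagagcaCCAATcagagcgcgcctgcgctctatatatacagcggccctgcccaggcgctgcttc
The H2BC12 stretch held 1 TATA box, 5 CCAAT boxes and 2 matches to the octamer part. The H2BC21 and H2AC6 stretches each held 1, 3 and 1 of these. H1-2 had a single CCAAT box and neither of the other motifs. No base of the 4 stretches lay in 2 motifs. Of the 65 symbols in the member list 57 had a promoter in the RefSeq table. Within 250 bases upstream, a TATA box was found in 64.9% of these 57 and in 10.7% of all 35116 promoters, a CCAAT box in 82.5% and 32.0%, and the octamer part in 38.6% and 3.67%. By class, the octamer part lay in 13 of 16 H2B promoters, 8 of 13 H2A promoters, 1 of 9 H3 promoters and none of the 13 H4 or 6 H1 promoters. A match is a string of letters in this window and says nothing about binding.

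Most members were dim. The median member had a mean signal of 18.2 over all arrays, close to the median of 17.9 over all probe sets. All 23 members that were not tested had a mean signal under 20. Of the 49 tested, 15 were also under 20, 22 lay between 20 and 100, and 12 reached 100. The brightest was a probe set shared by 14 H4 genes, with a mean of 2642 and a range of 1337 to 5123 over the 42 arrays. H2BC12 came next with a mean of 1063, brighter than 94.7% of all probe sets. The next H2B signals were H2BC12L at 317 and H2BC5 at 210.3, the brighter of its 2 probe sets. The brightest H2A probe set reads H2AC19 and H2AC18, a pair on chromosome 1, at 249. H1-2 led the H1 class at 162.3, and the H3 class was led by a probe set shared by 10 H3 genes. These are signals of different probes, so their order is not an order of transcript levels.

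The RefSeq gene models of the members were unequal in length. H2BC12 spans 8566 bp (chromosome 6, 27138293 to 27146858) and H2BC5 13229 bp (chromosome 6, 26158121 to 26171349), and H2BC21 spans 2224 bp (chromosome 1, 149884459 to 149886682). H2AC6 (519 bp, chromosome 6, 26124172 to 26124690) and H1-2 (731 bp, chromosome 6, 26055740 to 26056470) have models of the short kind usual for the clusters. Of the members annotated to 1 gene, 7 probe sets belonged to 5 genes with models over 1000 bp, and their median mean signal was 45.4. The other 45 had a median of 12.5.

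The lines were first compared without doxycycline, as the mean of 24, 32 and 48 h with 9 arrays in each line. Among histone signals lower ones outnumbered higher ones in the BMI1-shRNA line: 21 of the 49 members tested were lower and 2 were higher at an adjusted p under 0.05 (limma, Benjamini-Hochberg over 35232 probe sets). The same call was made for 18.1% of all probe sets in the lower direction and 17% in the higher one. The median log2 fold change, BMI1-shRNA line minus control-shRNA line on the log2(signal + 5.4) scale, was -0.29 over the members and -0.00 over all probe sets, and 38 of 49 members were below 0. In bulk RNA, fewer cells of a type and less RNA per cell cannot be told apart. With no filter on brightness 20 of all 72 members were lower and 2 higher, against 11.3% and 10.8% of 54613 probe sets.

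The H2B class moved most uniformly, with 12 of its 13 tested probe sets lower (18.1% of all probe sets) and a median of -0.49. H2BC12 read 667 at the lowest, 757 at the median and 943 at the highest of 9 arrays in the BMI1-shRNA line, against 1176, 1330 and 1439 in the control-shRNA line. The groups did not overlap, and every BMI1-shRNA array was below every control-line array. Its mean was 778 ± 85.6 in the BMI1-shRNA line and 1307 ± 88.4 in the control-shRNA line (SD, 9 arrays each), 1.68-fold lower (log2 fold change -0.75, SE 0.04, limma adjusted p = 1.60e-18). H2BC12L ranged over 197 to 283 in the BMI1-shRNA line and 345 to 429 in the control-shRNA line, again without overlap (log2 fold change -0.68, SE 0.07, limma adjusted p = 2.34e-10). Its probes are of the _x_at type, which can bind related transcripts, and H2B genes are near-identical in their coding parts, so its signal is uncertain as a measure of this 1 gene.

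H2BC5 averaged 169 ± 9.27 in the BMI1-shRNA line and 241 ± 32.8 in the control-shRNA line on its brighter probe set (9 arrays each), with no overlap and a log2 fold change of -0.49. The second H2BC5 probe set was lower by a smaller step (log2 fold change -0.36, limma adjusted p = 0.00474), and there the groups overlapped. H2BC21 read 19.1 to 43.0 in the BMI1-shRNA line and 36.2 to 68.0 in the control-shRNA line (log2 fold change -0.64, limma adjusted p = 5.59e-05). Its groups overlapped only through 1 control-line array, at 36.2. H2BC9, H2BC6 and H2BC4 were also lower, with log2 fold changes of -0.53, -0.40 and -0.38. With no filter the call was lost for H2BC4 (adjusted p = 0.0647) and for 1 of 2 probe sets shared by H2BC11 and H2BC8 (0.0663). Of the H2B probe sets annotated to 1 gene 8 of 8 were lower, and of the shared ones 4 of 5. The exception, 1 of 3 probe sets shared by H2BC4 and 4 other H2B genes, had a log2 fold change of -0.32 and a limma adjusted p of 0.0511. The probe sets of H2BC5, H2BC6 and H2BC9 are of the _x_at type, like that of H2BC12L. They can bind related transcripts, so the 8 may not be separate readings of single genes. By type, 9 of 15 tested members ending in _x_at were lower, 4 of 7 in _s_at and 8 of 26 in plain _at. Of all probe sets of any type 18.1% were lower.

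**Figure D1:**
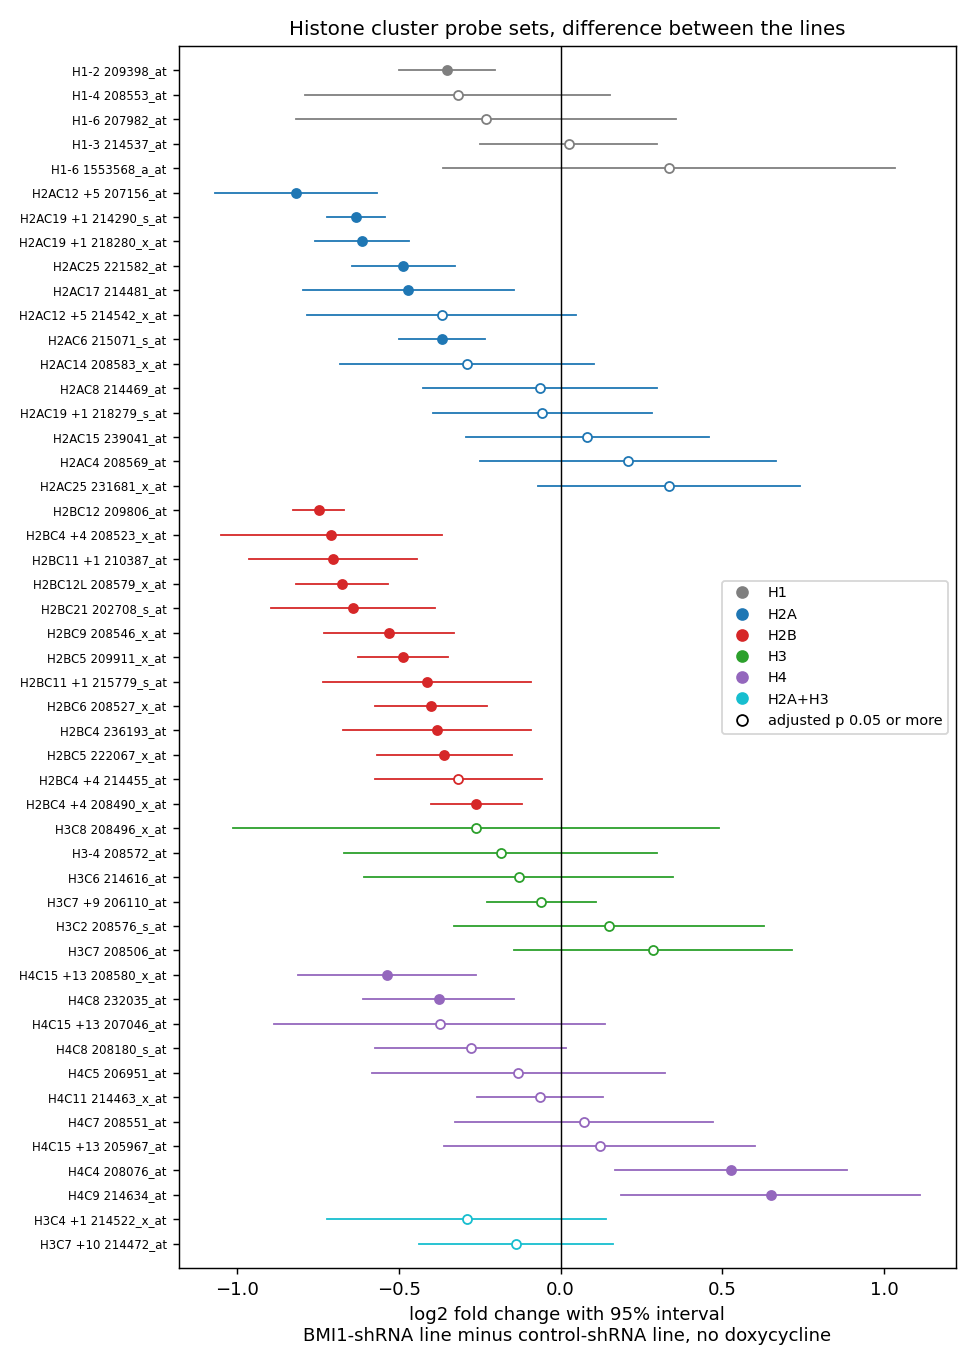
Points give the log2 fold change of each of the 49 tested probe sets between the lines without doxycycline, with lines for the 95% interval, grouped and coloured by histone class, filled where the limma adjusted p was under 0.05; +n after a symbol counts the further genes that share the probe set. All 13 H2B points lie left of 0 and 12 are filled, while the 6 H3 points are open.

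Of 13 H2A probe sets 6 were lower and none higher, against 18.1% and 17% of all probe sets, with a median of -0.37. The pair H2AC19 and H2AC18 on chromosome 1 read 162 to 225 in the BMI1-shRNA line and 289 to 329 in the control-shRNA line on the brightest probe set, without overlap (log2 fold change -0.63, SE 0.04, limma adjusted p = 6.62e-15). A second probe set for the pair gave -0.61, also without overlap, and the last was dim (17.3 and 18.6 on average in the BMI1-shRNA and control-shRNA lines) and gave -0.06. The probe set with the most negative log2 fold change of all members was 1 of 2 shared by H2AC12 and 5 other H2A genes, at 48.6 ± 9.75 in the BMI1-shRNA line and 90.5 ± 19.8 in the control-shRNA line (9 arrays each; log2 fold change -0.82). H2AC6 was lower by a smaller step, at 122 ± 17.1 in the BMI1-shRNA line and 158 ± 7.97 in the control-shRNA line (log2 fold change -0.37, limma adjusted p = 1.92e-05). H2AC25 was read by 2 probe sets that disagreed, the brighter at -0.49 and the dim one at 0.34 with a limma adjusted p of 0.210.

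Among 10 H4 probe sets 2 were lower and 2 higher, near the 18.1% and 17% of all probe sets. Among 6 H3 probe sets none was called. H4C8 averaged 40.1 ± 6.78 in the BMI1-shRNA line and 53.5 ± 7.07 in the control-shRNA line on the 1 of its 2 probe sets that was called (log2 fold change -0.38, limma adjusted p = 0.00849). Both H4 probe sets that were higher were dim: H4C9 averaged 16.8 and 9.01, and H4C4 20.3 and 13.3, in the BMI1-shRNA and control-shRNA lines. Among the probe sets shared by the same 14 H4 genes, 1 was lower (log2 fold change -0.54, limma adjusted p = 0.00147), while the much brighter one named above had a log2 fold change of 0.12 with a 95% interval of -0.36 to 0.60. The brightest H3 probe set averaged 59.7 ± 4.62 in the BMI1-shRNA line and 62.6 ± 6.83 in the control-shRNA line, with an interval of -0.23 to 0.11. Of the 5 linker histone probe sets only H1-2 was called, at 141 ± 26.1 in the BMI1-shRNA line and 179 ± 10.1 in the control-shRNA line (log2 fold change -0.35, limma adjusted p = 0.000151).

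The share of members called lower went with brightness, as it did over all probe sets. Of 12 members with a mean signal of 100 or more 11 were lower, against 29.5% of all probe sets that bright, the exception being the brightest H4 probe set. Between 50 and 100 it was 3 of 6 against 19.5%, between 20 and 50 it was 7 of 16 against 11%, and under 20 it was 0 of 15 against 4.75%. Of the 11 bright members that were lower, 5 had groups that did not overlap, against 34.2% of the 4318 probe sets of all kinds that were that bright and called lower. Of the members annotated to 1 gene, 5 of 6 tested with gene models over 1000 bp were lower, and 8 of 27 with shorter models. Of all probe sets 18.1% were lower. H2BC5 entered the 6 with both of its probe sets. Members with the longer models were also brighter (median mean signal 45.4 against 12.5, tested or not), and the part of length or brightness was not tested.

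**Figure D2:**
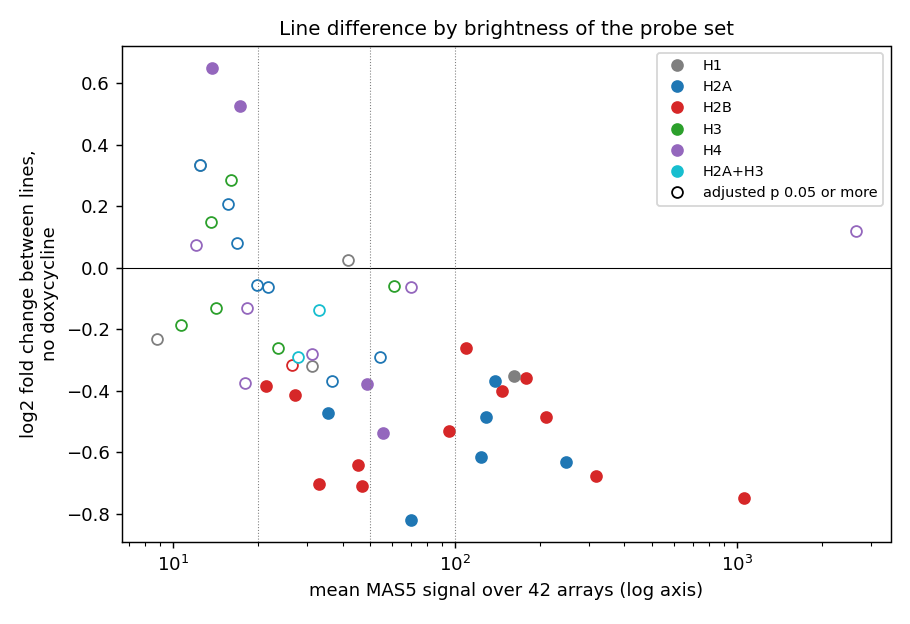
Each point is 1 of the 49 tested probe sets, with its mean signal over 42 arrays on a log axis and the log2 fold change between the lines without doxycycline, coloured by class and filled where the limma adjusted p was under 0.05; dotted lines stand at signals of 20, 50 and 100. To the right of 100 all points but the H4 probe set at 2642 are filled and below 0.

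The lines were also compared on the arrays with doxycycline. With the hairpin on, BMI1 differed by more between the lines (log2 fold change -2.79, against -0.32 without doxycycline). There 18 of 49 members were lower in the BMI1-shRNA line and none was higher (limma; 17.9% of all probe sets were lower and 20.2% higher, and 23 members had an unadjusted p under 0.05). Of the 21 members lower without doxycycline 16 were also lower with it, which is 76.2% of the first list and 88.9% of the second. All 21 had a negative log2 fold change there. The matching share over all probe sets is not given here, so this overlap was not shown to be particular to the members. H2BC12 read 673 to 781 in the BMI1-shRNA line with doxycycline and 1214 to 1490 in the control-shRNA line with doxycycline, without overlap (log2 fold change -0.86, limma adjusted p = 2.20e-20). H2BC21 read 20.1 to 44.8 in the BMI1-shRNA line and 51.9 to 75.9 in the control-shRNA line, which also did not overlap (log2 fold change -0.81). The 2 members lower only in this list were the shared H2B probe set with the adjusted p of 0.0511 without doxycycline, and the dim H3-4 (log2 fold changes -0.59 and -0.72). Over the 49 members the log2 fold changes with and without doxycycline correlated at r = 0.764, a description over probe sets of which some share transcripts.

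**Figure D3:**
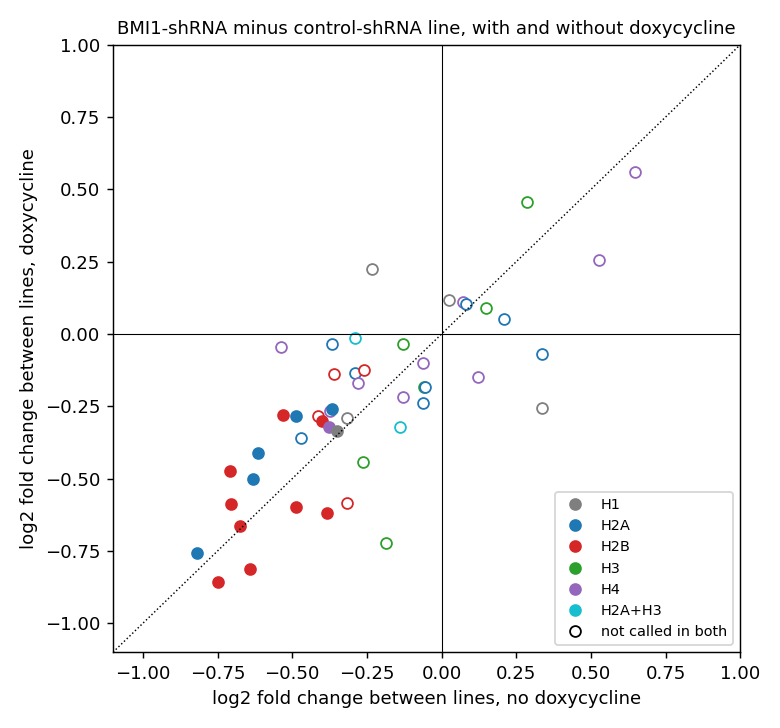
For each of the 49 tested probe sets the log2 fold change between the lines without doxycycline is on the horizontal axis and that with doxycycline on the vertical one, filled where both were called; the dotted line marks equal values. The filled points, mostly H2B and H2A, lie at the lower left, from -0.86 to -0.26 on the vertical axis.

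At each time alone the direction was kept. Without doxycycline 15 members were lower at 24 h, 11 at 32 h and 15 at 48 h, against 11.2%, 9.89% and 9.88% of all probe sets. Only H4C4 at 48 h was higher (log2 fold change 1.13), against 9.96% of all probe sets. All 21 members lower over the 3 times had a negative log2 fold change at each of them, but they were chosen on the mean of these same arrays. Of these 21, 7 were called at each time, and of all 6381 probe sets lower over the 3 times 32.6% were. At 0 h, where the labels of the BMI1-shRNA arrays conflict, 15 members were lower and none higher, against 10.7% and 10.2% of all probe sets. There H2BC12 read 737 to 771 in the BMI1-shRNA line and 1609 to 1789 in the control-shRNA line, which did not overlap. Lower without doxycycline, with doxycycline and at 0 h were 11 probe sets, those of H2BC12, H2BC12L, H2BC5, H2BC6, H2BC21, H2AC6, H2AC25, H4C8, H1-2 and, in 2 of them, H2AC19 with H2AC18. That is 11 of the 49 members tested, against 7.98% of all probe sets.

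**Figure D4:**
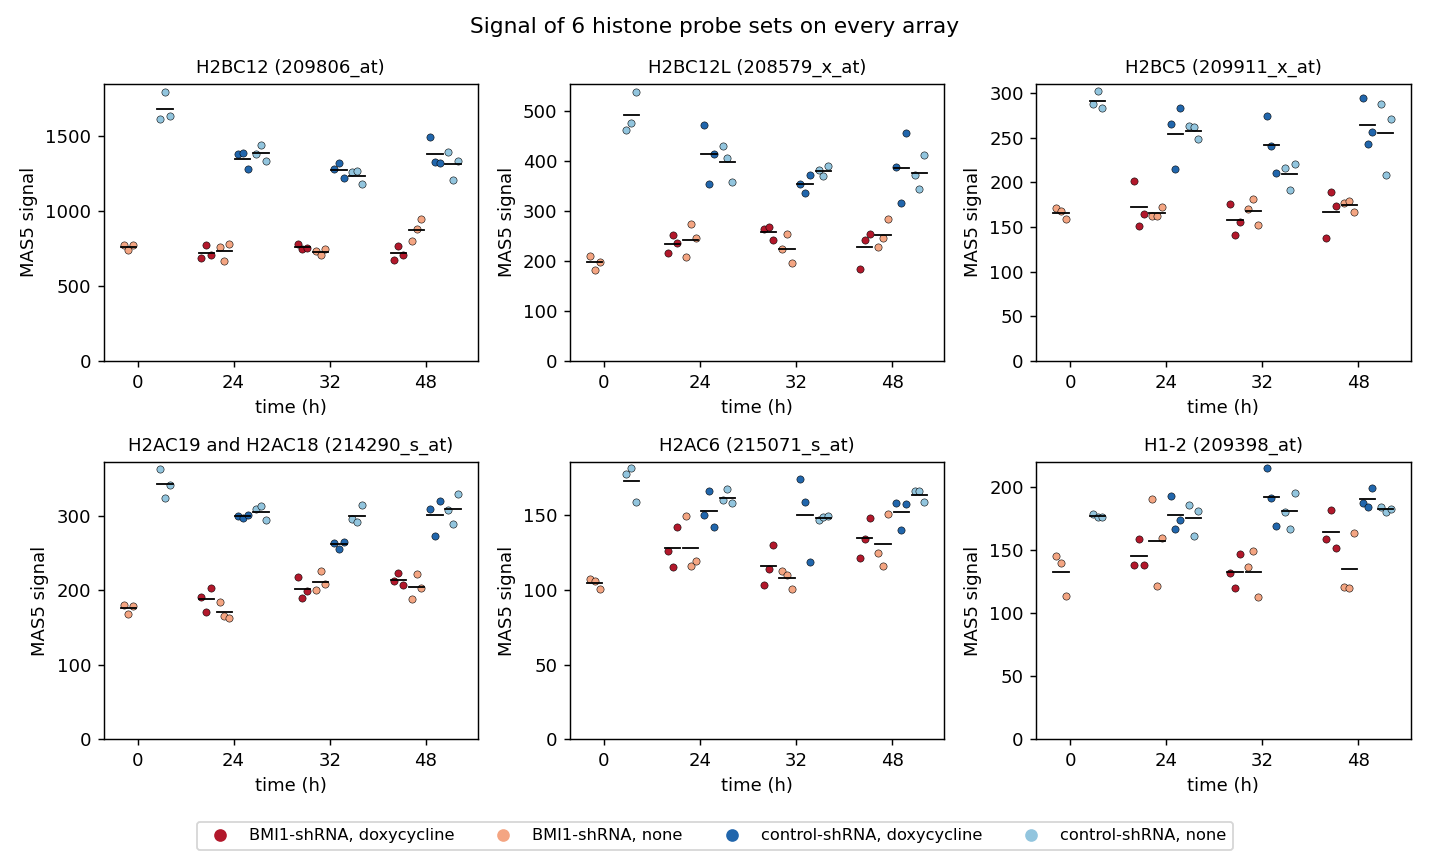
Each dot is the MAS5 signal on 1 array at 0, 24, 32 or 48 h, and bars are the means of 3 arrays, for BMI1-shRNA cells with and without doxycycline (dark red and orange) and control-shRNA cells with and without it (dark and light blue). For H2BC12, H2BC12L and H2AC19 with H2AC18 the red and orange dots lie below all blue dots, while for H2AC6 and H1-2 they overlap.

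Doxycycline, which lowered BMI1 in the BMI1-shRNA line only (log2 fold change -2.43 there and 0.03 in the control-shRNA line; difference -2.47, limma adjusted p = 3.94e-23), was then set against no doxycycline within each line. In the BMI1-shRNA line none of the 49 members was called over the mean of 24, 32 and 48 h (limma, 5.83% of all probe sets called; 5 members had an unadjusted p under 0.05). The 21 members that were lower between the lines had log2 fold changes of -0.12 to 0.26, with a median of 0.07. Of these, 11 had mean signals of 100 or more, and the 95% intervals of their doxycycline effects lay between -0.18 and 0.33. H2BC12 averaged 732 ± 40.3 with doxycycline and 778 ± 85.6 without it (9 arrays each; log2 fold change -0.08, 95% interval -0.16 to -0.00, limma adjusted p = 0.279). H2AC19 with H2AC18 averaged 201 ± 16.1 with doxycycline and 196 ± 22.4 without it on their brightest probe set (95% interval -0.05 to 0.13).

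In the control-shRNA line no member was called for doxycycline either (limma, 0.071% of all probe sets called; 0 members had an unadjusted p under 0.05). The difference of the doxycycline effects, BMI1-shRNA line minus control-shRNA line, was called for no member over the 3 times (2.53% of all probe sets; 2 members with an unadjusted p under 0.05). That difference equals the line difference with doxycycline minus the line difference without it, so no member's line difference was shown to depend on doxycycline over the 3 times. The comparisons share arrays with the line differences above.

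At single times no member was called at 24 or 32 h in the BMI1-shRNA line (limma; 0.897% and 1.38% of all probe sets called; 1 and 4 members with an unadjusted p under 0.05), and 1 at 48 h, H2BC12 (3.83%). In the control-shRNA line none was called at 24, 32 or 48 h (0.0142%, 0.00851% and 0.0114%; 2, 3 and 1 members with an unadjusted p under 0.05), and the difference of the lines called none at 24 and 32 h (0.219% and 0.565%; 1 and 3 members with an unadjusted p under 0.05). H2BC12 read 673, 767 and 707 on the 3 arrays with doxycycline and 801, 876 and 943 on the 3 without it. The 2 groups did not overlap, and the log2 fold change was -0.28 (SE 0.07, limma adjusted p = 0.00811). In the control-shRNA line at 48 h it read 1490, 1326 and 1315 with doxycycline and 1391, 1204 and 1333 without it. The doxycycline effects of the lines differed by a log2 value of -0.36 (95% interval -0.55 to -0.16, limma adjusted p = 0.0435, 1.65% of all probe sets called). The undosed BMI1-shRNA arrays at 48 h were the highest of that line: H2BC12 averaged 727 to 759 in its undosed groups at 0, 24 and 32 h. Leaving out dosed replicate 1 or undosed replicate 3 at 48 h ended the call in the BMI1-shRNA line, and the call on the difference between the lines was lost when any 1 of 10 arrays was left out. With only the groups compared in the fit, the adjusted p was 0.156 in the BMI1-shRNA line and 0.313 for the difference. The call on the difference was also lost with the replicate number as a block (adjusted p = 0.0533), with no filter (0.0656), with no intensity trend (0.0877) and without the 0 h arrays (0.0643).

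The times were compared without doxycycline. Between 48 and 24 h no member was called in either line (limma; 0.596% of all probe sets in the BMI1-shRNA line and 0.358% in the control-shRNA line; 5 members and 1 member with an unadjusted p under 0.05). Between 48 and 0 h H2BC12 fell in the control-shRNA line, to 1391, 1204 and 1333 at 48 h against 1609, 1789 and 1629 at 0 h (log2 fold change -0.36, limma adjusted p = 0.000957, 3.56% of all probe sets called). In the BMI1-shRNA line it read 801, 876 and 943 at 48 h against 770, 737 and 771 at 0 h (log2 fold change 0.20, limma adjusted p = 0.118). The 2 time effects differed by 0.55 (95% interval 0.36 to 0.75, limma adjusted p = 0.00365, 0.139% of all probe sets called), a comparison added after the data were seen. The log2 line difference of H2BC12 was -1.14 at 0 h, -0.91 at 24 h, -0.76 at 32 h and -0.58 at 48 h, each with limma adjusted p under the threshold. With only the groups compared in the fit, the adjusted p was 0.0603 for the time effect in the control-shRNA line and 0.113 for the difference of the time effects.

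Other members were called for time, and for none of them was the difference between the lines called. In the control-shRNA line 1 of 2 probe sets shared by H2BC11 and H2BC8 rose to 39.1, 62.2 and 65.5 at 48 h against 29.7, 29.9 and 16.6 at 0 h (log2 fold change 0.99, limma adjusted p = 0.00579; 0.144 with only the groups compared in the fit). In the BMI1-shRNA line this probe set read 23.0, 30.3 and 29.9 at 48 h against 19.6, 17.8 and 17.7 at 0 h, also without overlap (0.47, limma adjusted p = 0.289). In the BMI1-shRNA line the dimmer H2BC5 probe set rose to 221, 209 and 164 at 48 h against 114, 132.1 and 125 at 0 h (0.65, limma adjusted p = 0.0388, 2.53% of all probe sets called). The brighter H2BC5 probe set averaged 174 at 48 h and 166 at 0 h in that line. The brightest H3 probe set rose to 59.2, 58.8 and 69.9 at 48 h against 41.8, 41.2 and 42.8 at 0 h (0.52, limma adjusted p = 0.0434). The groups did not overlap in any of the 3 called cases. Nor did they for members that were not called, such as H2BC12L and H2AC6 in the BMI1-shRNA line. The share over all probe sets is not given here, so the lack of overlap adds nothing to the calls. The 2 calls in the BMI1-shRNA line rest on the arrays with conflicting labels, and both were lost with no filter or without any 1 of the 0 h arrays of that line.

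The brightest H4 probe set varied more within groups than any other bright probe set. Of 3039 tested probe sets with a mean signal of 1000 or more none had a larger SD of log2 deviations from the group means, which was 0.472 for it, 0.0670 for H2BC12 and 0.0728 at the median. In the BMI1-shRNA line without doxycycline at 24 h it read 5123, 4033 and 2520, and in the control-shRNA line with doxycycline at 24 h 3884, 4204 and 1337. None of the comparisons made called it.

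**Figure D5:**
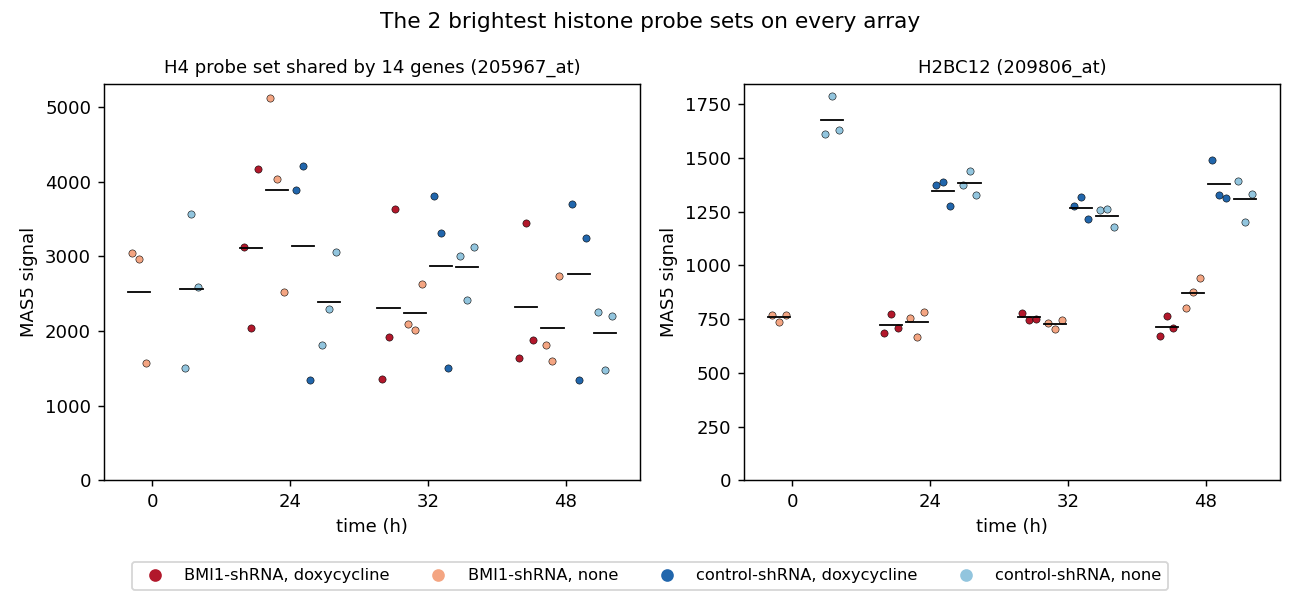
Dots are MAS5 signals on single arrays at 0, 24, 32 and 48 h and bars means of 3 arrays, for the brightest H4 probe set (left) and H2BC12 (right), coloured by line and doxycycline. The H4 signal spreads from 1337 to 5123 within and between groups, while the H2BC12 triplicates are tight and the lines lie apart.

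Genes that make and process histone mRNA were read beside the members, each by its brightest probe set. Of 27 processing and control genes measured 9 were higher and 2 lower in the BMI1-shRNA line without doxycycline. Over all 14704 genes read by their brightest probe set, 21.2% were higher and 21.4% lower. SLBP, the stem-loop binding protein, averaged 2210 ± 79.4 in the BMI1-shRNA line and 2208 ± 66.6 in the control-shRNA line (log2 fold change 0.00). NPAT, the activator of the clusters, was lower (369 ± 34.0 in the BMI1-shRNA line and 441 ± 15.1 in the control-shRNA line, log2 fold change -0.26), and XRN1, a 5-prime to 3-prime exonuclease, was lower by more (-0.62). LSM1, part of a ring that binds histone mRNA for decay, and ERI1, the exonuclease of the stem-loop, were higher (0.71 and 0.64). With doxycycline in the BMI1-shRNA line 3 of these 27 genes fell and none rose, against 4.07% and 3.46% of the 14704 genes, and each of the 3 also differed from the control line's effect. LSM11 of the U7 snRNP averaged 108 ± 15.7 with doxycycline and 156 ± 15.5 without it (log2 fold change -0.51, limma adjusted p = 2.62e-08), and in the control-shRNA line 172 ± 8.88 with doxycycline and 167 ± 18.4 without it. ERI1 and NPAT fell by 0.40 and 0.26 on the log2 scale in the same comparison.

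Of 38 S phase genes measured 13 were higher and 10 lower between the lines without doxycycline (21.2% and 21.4% of all genes), with a median log2 fold change of -0.02. PCNA, the sliding clamp of replication, was higher in the BMI1-shRNA line (6371 ± 517 and 5122 ± 175 in the control-shRNA line, log2 fold change 0.31), and so was MCM4 of the replicative helicase (0.69), while RFC5 of the clamp loader (-0.45) and CDC45 (-0.40) were lower. Doxycycline in the BMI1-shRNA line lowered 5 of the 38 and raised none (4.07% and 3.46% of all genes), among them PCNA (-0.39) and DTL, which targets replication factors for destruction (-0.51). Of 22 histone chaperones 5 were higher and 5 lower between the lines, near the 21.2% and 21.4% of all genes, with NASP, a chaperone of H3 and H4, at 0.23 and HJURP, the chaperone of the centromeric H3 variant, at -0.37. The part of these lists in the members' difference was not tested.

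Most of the replacement histones are also made outside S phase, with poly(A) tails. Of 9 measured 2 were higher and 3 lower in the BMI1-shRNA line without doxycycline, where 21.2% and 21.4% of all genes were called. H2AJ averaged 368 ± 43.1 in the BMI1-shRNA line and 190.5 ± 24.4 in the control-shRNA line (log2 fold change 0.93), and H1-10 was higher too (0.42). MACROH2A1 was lower (-0.29), as were H2AX (-0.18) and the dim MACROH2A2 (-0.96).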

How the data were processed

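The deposited table holds MAS5 signal intensities of 42 Affymetrix U133 Plus 2 arrays, scaled by the authors: per the submitters' processing notes the values are MAS5, with no version given, and the trimmed mean of each array was 150.02 to 150.03. Array medians were 16 to 22.5, and the number of arrays limits the precision. The 62 control probe sets were left out. Signals plus 5.4 (the 25th percentile) were put on the log2 scale and fitted with limma 3.58.1 (R 4.3.3; 14 group means, intensity trend, 28 residual degrees of freedom), with Benjamini-Hochberg adjustment over the 35232 probe sets kept and a threshold of 0.05. The fit was tested on simulated data. Symbols came from the platform annotation, updated through RefSeq (GRCh38.p14), which also gave coordinates and promoters: 41091 probe sets had 1 symbol, 1801 several and 11721 none.

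The members and the gene lists were chosen with earlier results of these data known. Members named were the 10 called with the lowest and the 10 with the highest log2 fold change between the lines without doxycycline, the 3 lowest and 3 highest called elsewhere, the brightest of each class, and H1-2, H2AC6, H2BC5, H2BC12, H2BC21 and H4C8; from each list up to 5 called genes with the largest change, with SLBP, NPAT and PCNA. H2AC25, H3-4, the uncalled probe sets beside called ones, LSM11 and DTL were named after their values were seen. No pairing of the samples by replicate number was seen (mean correlation of deviations 0.001 for the same number and -5e-04 for different ones). Single correlations for the same number ran from -0.237 to 0.201, and the labels do not say how replicates arose.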

Additional observations from a re-analysis of the deposited data

Results flagged for a closer look

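H2BC12 was singled out by tests of a difference between the lines in 2 comparisons. Its doxycycline effect at 48 h differed by -0.36 on the log2 scale, BMI1-shRNA line minus control-shRNA line (SE 0.10, limma adjusted p = 0.0435, n = 3 arrays per group). Over the settings tried with all arrays the difference was called in some and lost in others, and leaving out single arrays moved it between -0.42 and -0.30. Its effect of 48 h against 0 h without doxycycline differed by 0.55 (SE 0.10, limma adjusted p = 0.00365), with 0.49 to 0.61 when single arrays were left out. The second comparison rests on the BMI1-shRNA arrays at 0 h, whose labels conflict. Both comparisons use the same undosed arrays at 48 h. Between 48 and 24 h the difference of the time effects was 0.33 (limma adjusted p = 0.376). For members as a whole that difference called none, as it did for 0% of all probe sets (2 members with an unadjusted p under 0.05).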

How the results depend on the processing

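Of the 19 named members called between the lines without doxycycline, 15 were called in every setting that gave a value, and none of these 19 changed sign. Counts that moved by over 1.5 times follow, and the cause was not tested beyond the fewer probe sets tested under a stricter filter. The filter at the 75th percentile tested 13 members, the brightest 1-symbol probe set per gene 29 and no filter 72, against 49 in the main fit. Counts under these settings are therefore not out of the same number. Without doxycycline, the 23 calls of 49 (21 lower, 2 higher) became 12 of 13 with the stricter filter, with 12 lower and 0 higher. They became 14 of 29, with 12 lower, with the brightest probe sets. The higher calls became 1 when only the groups compared were fitted. With doxycycline, the 18 calls became 10 with the stricter filter, and 1 higher call appeared with the brightest probe sets or no intensity trend. Counts were 9 at 0 h and 8 at 24 h with the brightest probe sets (15 each before), 7 at 32 h with no filter (11 before) and 9 at 48 h with only the groups compared (16 before).

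For the doxycycline difference at 32 h, 1 call appeared with quantile normalization, the brightest probe sets or no trend. The call on the difference at 48 h became 0 with no filter, no trend, only the groups compared or without the 0 h arrays, and the call at 48 h in the BMI1-shRNA line became 0 with only the groups compared. Between 48 and 24 h, 1 call appeared in the BMI1-shRNA line with quantile normalization or the stricter filter, and 1 in the control-shRNA line with no filter. Between 48 and 0 h, the 2 calls in the BMI1-shRNA line became 1 (quantile, stricter filter, no trend, only the groups compared) or 0 (no filter, brightest probe sets), the 2 in the control-shRNA line became 1 (brightest) or 0 (only the groups compared), and the 1 on their difference became 2 (stricter filter) or 0 (only the groups compared). Doxycycline effects near 0 changed sign: H2AC17 to -0.011 with a pseudocount at the median and -0.051 with quantile normalization, and H2BC12L to -0.015 and H4C4 to -0.022 with quantile normalization.

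With the replicate number as a block, the call on H2BC12 in the doxycycline difference at 48 h was lost (0 calls, log2 value -0.36, adjusted p = 0.0533), and no other count of members moved by over 1.5 times.

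Leaving out 1 array at a time gave 20 to 24 calls without doxycycline (19 to 22 lower, 0 to 2 higher), 16 to 20 with it (15 to 19 lower, 0 to 1 higher), 12 to 16 at 0 h, 9 to 16 at 24 h, 7 to 11 at 32 h and 11 to 17 at 48 h. The lowest count at 24 h came without control-shRNA undosed replicate 3, and that at 32 h without BMI1-shRNA undosed replicate 3. Doxycycline calls in the BMI1-shRNA line were 0 to 1 over all times, with 1 (a probe set of H2AC19 and H2AC18) without undosed replicate 2 of 48 h, and 0 to 1 at 48 h. The difference between the lines gave 0 to 1 at 32 h and 0 to 1 at 48 h. Between 48 and 24 h there were 0 to 1 calls in the BMI1-shRNA line, and between 48 and 0 h 0 to 3 there, 1 to 3 in the control-shRNA line and 1 to 2 for their difference. Doxycycline effects near 0 that changed sign spanned -0.172 to 0.104 for H2AC17, -0.149 to 0.112 for the second probe set of H2AC12 and 5 others, -0.033 to 0.049 for H2BC12L, -0.129 to 0.031 for H2BC21, -0.078 to 0.0037 for the brighter H2BC5 probe set, -0.080 to 0.0052 for the called probe set of H2BC11 and H2BC8 with the time effect, -0.017 to 0.210 for a probe set of H2BC4 and 4 others, -0.074 to 0.012 for the brightest H3 and -0.215 to 0.021 for the brightest H4 probe set, -0.043 to 0.043 for H4C4 and -0.071 to 0.180 for H4C9.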

Other observations

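The array-to-array spread of the brightest H4 probe set was followed after its values had been seen. Its log2 deviations from the group means correlated across the 42 arrays with those of 113 probe sets at r over 0.6 and of 52 at r under -0.6. The highest were TOP1, a topoisomerase, at 0.80, EPRS1, an aminoacyl-tRNA synthetase, at 0.78, MPLKIP at 0.77 and CEP57, a centrosomal protein, at 0.76. With the other tested histone members r ranged from -0.45 to 0.65. These are descriptions over arrays that share their processing, chosen for their size.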
